A study of Saccharomyces cerevisiae with 12 samples.

Results

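Small nucleolar RNAs (snoRNAs) were followed in 12 RNA-seq libraries of the budding yeast Saccharomyces cerevisiae, strain W303, mating type MATa. The table held 76 snoRNA rows, taken as all rows whose identifier begins with snR apart from the 5 spliceosomal RNAs that carry the same prefix (snR6, snR7-L, snR7-S, snR14 and snR19). Of these, 73 had a mean of at least 1 TPM (transcripts scaled to a fixed library total and to gene length) over the 12 libraries and are described here, among 7033 features in all and 6097 at or above the same mean. In every strain the chromosomal SCC2 gene carried the AID*-6FLAG degron tag. OsTIR1, a plant protein that sends tagged proteins to degradation once auxin is present, was driven by the ADH1 promoter. Scc2 is part of the cohesin loader. Each strain carried the HIS3 plasmid pRS413 with scc2-R787G (R787G), scc2-G1242V (G1242V), no insert (called null in the labels and empty vector here) or wild-type SCC2 (WT), with 3 libraries per group. All cultures, WT included, received 1 mM auxin for 3 h, so no untreated culture is among them. The labels do not say whether the libraries of a group came from independent transformants, and the growth protocol mentions duplicate null cultures although 3 libraries were used here. The p-values measure the spread between these libraries, which may be technical.

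SnoRNAs are the guide RNAs of the nucleolus, where ribosomal RNA is made and modified. Box C/D snoRNAs carry a stretch that pairs with ribosomal RNA and direct the methyltransferase Nop1 (fibrillarin) to a ribose in the paired stretch, while box H/ACA snoRNAs fold into hairpins that place a uridine before the pseudouridine synthase Cbf5. A few members do not mainly modify but are needed for cleavage of the ribosomal precursor, among them U3, U14, snR30 and snR10. In yeast most snoRNAs have a promoter of their own, some are cut from a shared transcript, and a few are released from introns of messenger RNAs.

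The sequences of 6 members on which the results below turn are shown in full, 5′ to 3′, as DNA letters of the RNA strand from RefSeq's R64 (sacCer3) assembly. Capitals mark the bases that pair without interruption with ribosomal RNA around the annotated methylation site. The 5 box C/D members are snR47 (chrIV:541602-541700, minus strand), snR40 (chrXIV:89210-89306, plus), snR50 (chrXV:259489-259578, plus), snR39B (chrVII:366374-366469, minus) and snR74 (chrXIII:298138-298225, plus). The box H/ACA member snR44 (chrXII:856710-856920, plus) lies in an intron of RPS22B, a gene for a protein of the small ribosomal subunit, and is given without capitals.
snR47: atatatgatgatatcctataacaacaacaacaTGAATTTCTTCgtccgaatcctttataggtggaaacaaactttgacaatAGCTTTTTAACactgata
snR40: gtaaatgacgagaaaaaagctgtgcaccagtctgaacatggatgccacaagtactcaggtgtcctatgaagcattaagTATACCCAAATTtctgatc
snR50: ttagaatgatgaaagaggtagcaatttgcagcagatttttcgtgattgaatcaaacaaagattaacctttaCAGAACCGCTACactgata
snR39B: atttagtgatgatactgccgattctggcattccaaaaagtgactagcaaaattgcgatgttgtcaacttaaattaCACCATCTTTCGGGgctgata
snR74: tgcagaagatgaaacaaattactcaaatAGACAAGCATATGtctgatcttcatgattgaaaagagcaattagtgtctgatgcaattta
snR44: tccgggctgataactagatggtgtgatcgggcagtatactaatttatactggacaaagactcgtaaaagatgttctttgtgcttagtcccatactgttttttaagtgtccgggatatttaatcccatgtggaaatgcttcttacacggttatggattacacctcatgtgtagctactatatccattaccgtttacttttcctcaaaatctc

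In snR47 the first capital stretch pairs around position 2220 of 25S ribosomal RNA and the other around position 619 of 18S. The capitals of snR40, snR50 and snR39B pair around positions 898, 867 and 805 of 25S, and those of snR74 around position 28 of 18S. The site in 25S opposite snR50 reads gtaGcggttctg, with the methylated base in capitals. A run of 8 to 16 bases complementary to an annotated site was found in 35 members, for 42 sites in all. In 27 of these sites the paired base lay 5 bases upstream of the next CTGA, the motif of box D, which is the spacing known for methylation guides.

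The members held 44 box C/D and 29 box H/ACA snoRNAs. For 42 of 44 box C/D members and 1 of 29 box H/ACA members, CTGA ended 10 or fewer bases before the end. TGATGA, part of box C, began by base 10 in 33 and 1 of them. Lengths here and below are annotated spans with no intron taken out, also for U3, so they can exceed those of the mature RNAs. Box C/D members spanned 78 to 490 bases with a median of 98, and box H/ACA members 161 to 1004 with a median of 204. By the known organisation of their genes, 49 had a transcript of their own, 17 came from shared transcripts and 7 from introns. They lay on 15 of the 16 chromosomes, and all 76 symbols matched the R64 annotation.

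Library totals were between 999546 and 999718 TPM, and since TPM holds no counts of reads, depth is unknown and counting error cannot be given. Each library's TPM was divided by a median-of-ratios factor between 0.904 and 1.19, and all levels below are scaled TPM unless said otherwise. SCC2 RNA, which comes from both the plasmid and the tagged gene, was at 51.2, 93.2 and 12.4 in libraries 1 to 3 labelled G1242V, between 12.1 and 12.8 in the empty-vector libraries, and between 109 and 128 in WT, so the library labelled G1242V 3 is at the empty-vector level and the group is called by its label throughout. It was between 86.5 and 99.6 in R787G. HIS3, the plasmid marker, was at 2498, 1042 and 2780 in the same G1242V-labelled libraries, against 796 to 900 in WT. The 6 marker genes of MATa cells averaged between 10.03 and 283 in the 4 groups, the 3 of MATalpha cells between 0.305 and 11.96, and the 4 of sporulation between 1.41 and 12.01. The share of all deposited TPM held by the 73 snoRNAs was 11.4%, 10.5% and 11.2% in the G1242V-labelled libraries, 9.32%, 10.8% and 7.52% in the empty-vector libraries, 9.75%, 9.25% and 8.45% in R787G, and 8.71%, 8.85% and 8.18% in WT. The G1242V-labelled shares overlap those of the empty-vector libraries and lie above all R787G and WT shares. Empty-vector library 3 has the lowest share of the 12 and stands apart in the snoRNAs, as described below.

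SnoRNA levels spanned 8018-fold, from a mean of 1.98 scaled TPM for snR74 to 15908 for snR30, with a median of 61.3. TPM is per length, but how evenly RNAs of different length were recovered was not tested, so the span and the class medians compare TPM and not molecules. The 8 members of highest mean were snR30, snR17a, snR10, snR86, snR37, snR83, snR17b and snR84, and the highest 6 held between 74.5% and 77.7% of all snoRNA TPM in every library. Of these 8, snR17a and snR17b are the gene pair for U3, which pairs with the ribosomal precursor in the small-subunit processome, and the other 6 are box H/ACA RNAs. The median was 405 for box H/ACA members and 35.2 for box C/D members. All 13 members with a mean under 10 were box C/D RNAs.

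Longer snoRNAs had higher levels. The 26 members of up to 100 bases had a median level of 22.3, the 27 of over 100 and up to 200 bases 51.1, and the 20 longer ones 1354. Spearman's rho of level with length was 0.777 over the 73 members, 0.506 within box C/D and 0.731 within box H/ACA, as a description across genes measured in the same libraries. The sequenced libraries averaged 290 bp, a size of the whole library molecules and not of the RNA fragments in them. Shorter than 290 bases are 42 of 44 box C/D and 23 of 29 box H/ACA members. Of the 8 longer members, 7 are among the 8 most abundant, and the part of fragment size in the relation was not tested. Members from introns had a median level of 29.7, those from shared transcripts 15.1 and those with a transcript of their own 241.

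**Figure D1:**
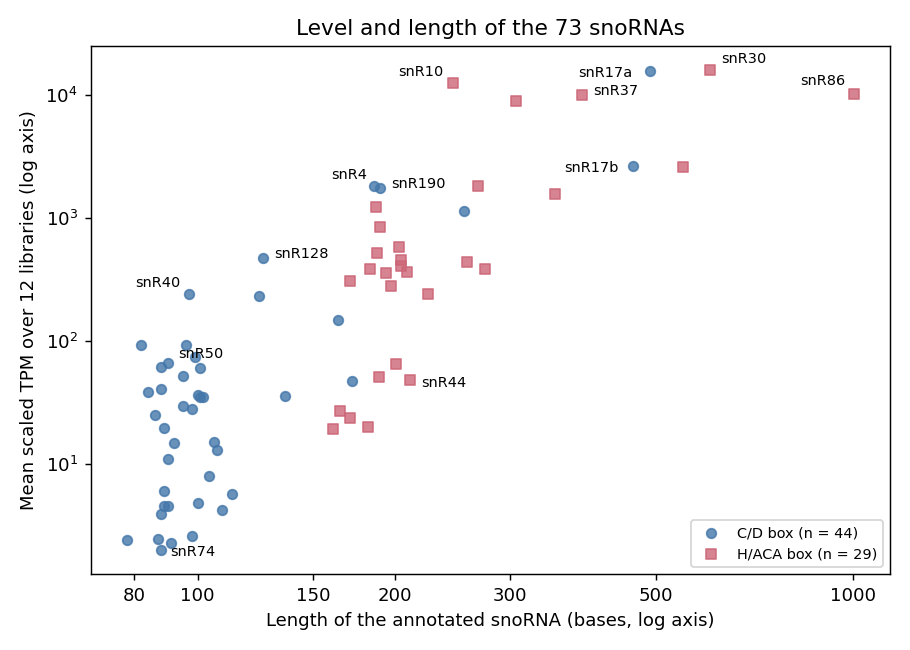
Mean scaled TPM over 12 libraries (log axis) against the annotated length in bases (log axis) for each of the 73 snoRNAs, with circles for box C/D and squares for box H/ACA. The levels run from 1.98 (snR74, 88 bases) to 15908 (snR30, 606 bases), and the members of up to 100 bases have a median of 22.3 against 1354 for those over 200 bases.

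The rule's threshold left out snR54 (mean 0.682 TPM as deposited), snR87 (0.338) and snR58 (0.251), each listed at 0 in at least 7 of the 12 libraries. The members just inside it were snR74 (1.93), snR53 (2.28) and snR59 (2.43), each listed at 0 in 3 libraries. In all, 8 members were listed at 0 in at least 1 library.

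Most snoRNAs had higher values in the G1242V-labelled libraries than in WT, while few single members passed the test. On log2(scaled TPM + 1), a scale that understates changes of low genes, the median fold change of the 73 members against WT was 0.33 for the libraries labelled G1242V, 0.06 for R787G and -0.04 for the empty vector. The medians over all 6097 features tested were 0.01, 0.00 and -0.01 in the same order. Of the 73 members, 63 were above 0 for G1242V, 49 for R787G and 34 for the empty vector. Per library, the median log2 ratio of the members to the WT mean was 0.36, 0.33 and 0.31 in the libraries labelled G1242V, 0.21, 0.01 and -0.02 in R787G, -0.01, 0.26 and -0.33 in the empty-vector libraries, and 0.01, 0.12 and -0.12 in WT. By this median over all members the 3 G1242V-labelled libraries lie close together and above all others, although their SCC2 RNA differs widely. The empty-vector libraries span the widest range. The order differed by subset. For the 49 members with a transcript of their own, empty-vector library 2 was highest, at 0.395 against 0.364, 0.351 and 0.362 in the G1242V-labelled libraries. For box C/D it was at 0.348 against 0.332, 0.366 and 0.374, and for box H/ACA at 0.22, below all 3.

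**Figure D2:**
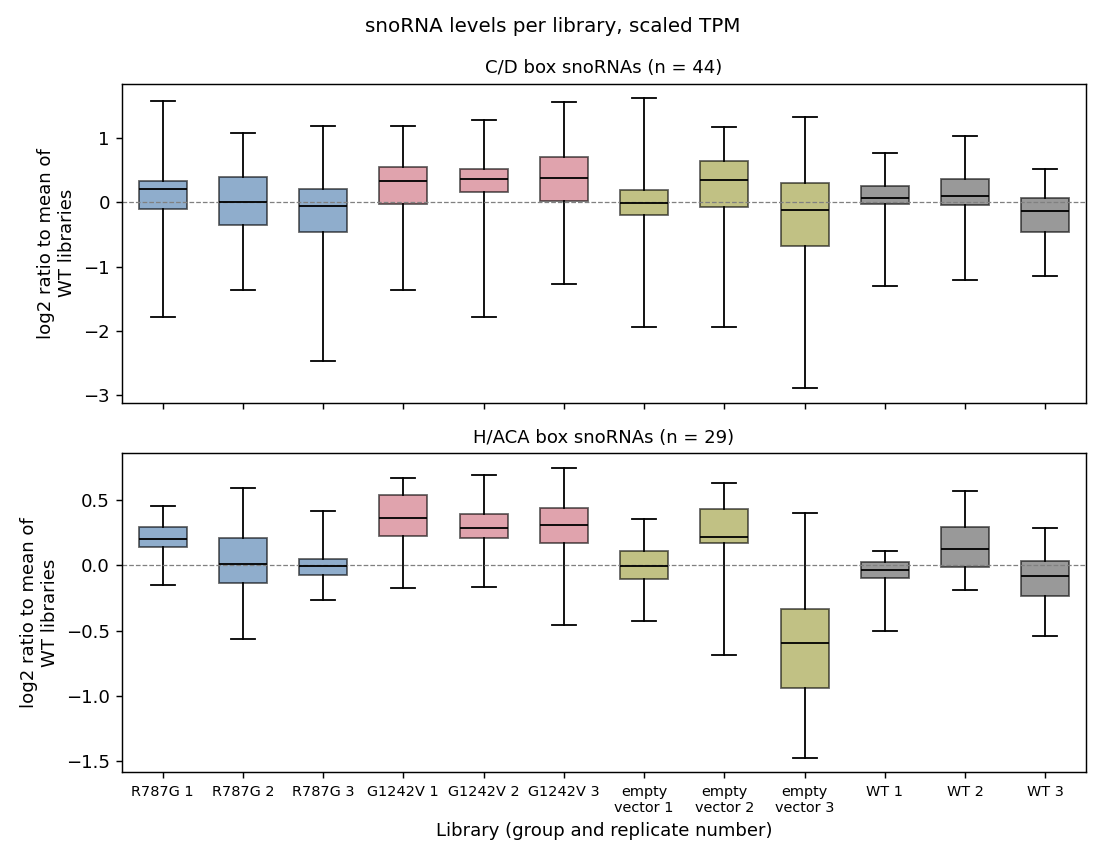
Log2 ratio of each snoRNA to its mean over the WT libraries (vertical axis), on log2(scaled TPM + 1), for the 12 libraries (horizontal axis), with the 44 box C/D members above, the 29 box H/ACA members below, boxes for quartiles and median, and whiskers for the full range. The box H/ACA median is 0.36, 0.29 and 0.31 in the G1242V-labelled libraries and -0.60 in empty-vector library 3.

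Other structural RNAs also had positive median ratios in the G1242V-labelled libraries and were low in empty-vector library 3. There were 9 with a row in the table: the 5 spliceosomal rows above, LSR1, SCR1, RPR1 and NME1. Their median log2 ratio to WT was 0.44, 0.27 and 0.32 in the G1242V-labelled libraries and 0.17, 0.04 and -0.08 in R787G. In the empty-vector libraries it was -0.09, 0.27 and -0.91, the last lower than the -0.33 of the snoRNAs. Single RNAs differed, with fitted log2 changes for G1242V against WT from -0.19 for SCR1 to 0.45 for snR6. Of the 9, 7 were above 0, 2 were below and none was called. Remaining 25S ribosomal RNA was at 53.0, 194 and 93.4 TPM as deposited in the G1242V-labelled libraries, 176 to 221 in the empty-vector libraries and 137 to 211 in R787G, against 590 to 989 in WT. The 12 ribosomal RNA and spacer entries that passed the filter, out of 18 listed, are 6 pairs with identical values. Of these 6 distinct features, 2 fell for G1242V against WT, 4 for the empty vector and 0 for R787G, where 2.59%, 1.51% and 0.0% of all features fell. When the libraries were instead scaled by these 9 structural RNAs, the median snoRNA change against WT was 0.09 for G1242V. That of all features was then below 0, as given in the closing section. In bulk RNA, fewer cells of a kind and less RNA per cell cannot be told apart. The part of ribosomal RNA depletion and of the recovery of small RNAs in the snoRNA changes was not tested.

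Against WT, 1 snoRNA passed the test in the libraries labelled G1242V (limma, Benjamini-Hochberg adjusted p under 0.05 over all features; all 12 libraries fitted together), where 4.58% of all features were called, 1.98% higher and 2.59% lower. This was snR50, which was higher. The G1242V values were all higher than WT for 31 of the 73 members (42.5%) and all lower for 1 (1.37%), against 20.8% and 19.6% of all features. Among the 40 members with a mean of 50 or more, 39 were above 0, 26 did not overlap and the median change was 0.43, while the 33 lower members had a median of 0.13. By class, 17 of 29 box H/ACA and 14 of 44 box C/D members were higher without overlap. At an unadjusted p under 0.05 there were 23 members, or 31.5%, against 26.9% of all features. The number of calls depended on the fit: 20 members, all higher, passed when only the G1242V and WT libraries were fitted, 6 when empty-vector library 3 was left out of the fit, an alternative chosen after seeing the data, and none when TPM was used as deposited. With the library labelled G1242V 2 alone, whose SCC2 RNA is nearest to WT, the median change was 0.33. No member was called there, but that group then has 1 library and its spread is assumed to be that of the other groups, so the missing calls say nothing about it.

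Against WT, the empty-vector libraries had 3 called snoRNAs, 1 higher and 2 lower, where 2.64% of all features were called, 1.13% higher and 1.51% lower. These were snR50, snR44 and snR74. Of these, snR74 was listed at 0 in all 3 empty-vector libraries and passed the filter only through the other groups. For 4 members the empty-vector values were all higher than WT and for 5 all lower, or 5.48% and 6.85%, against 17.3% and 18.4% of all features. R787G against WT had 0 called snoRNAs by limma, with 0.0% called among all features, and 3 members at an unadjusted p under 0.05, against 6.87% of all features. Its ranges were all higher for 3 members and all lower for 1, against 7.35% and 5.77% of all features, and its smallest adjusted p among snoRNAs was 0.617.

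**Figure D3:**
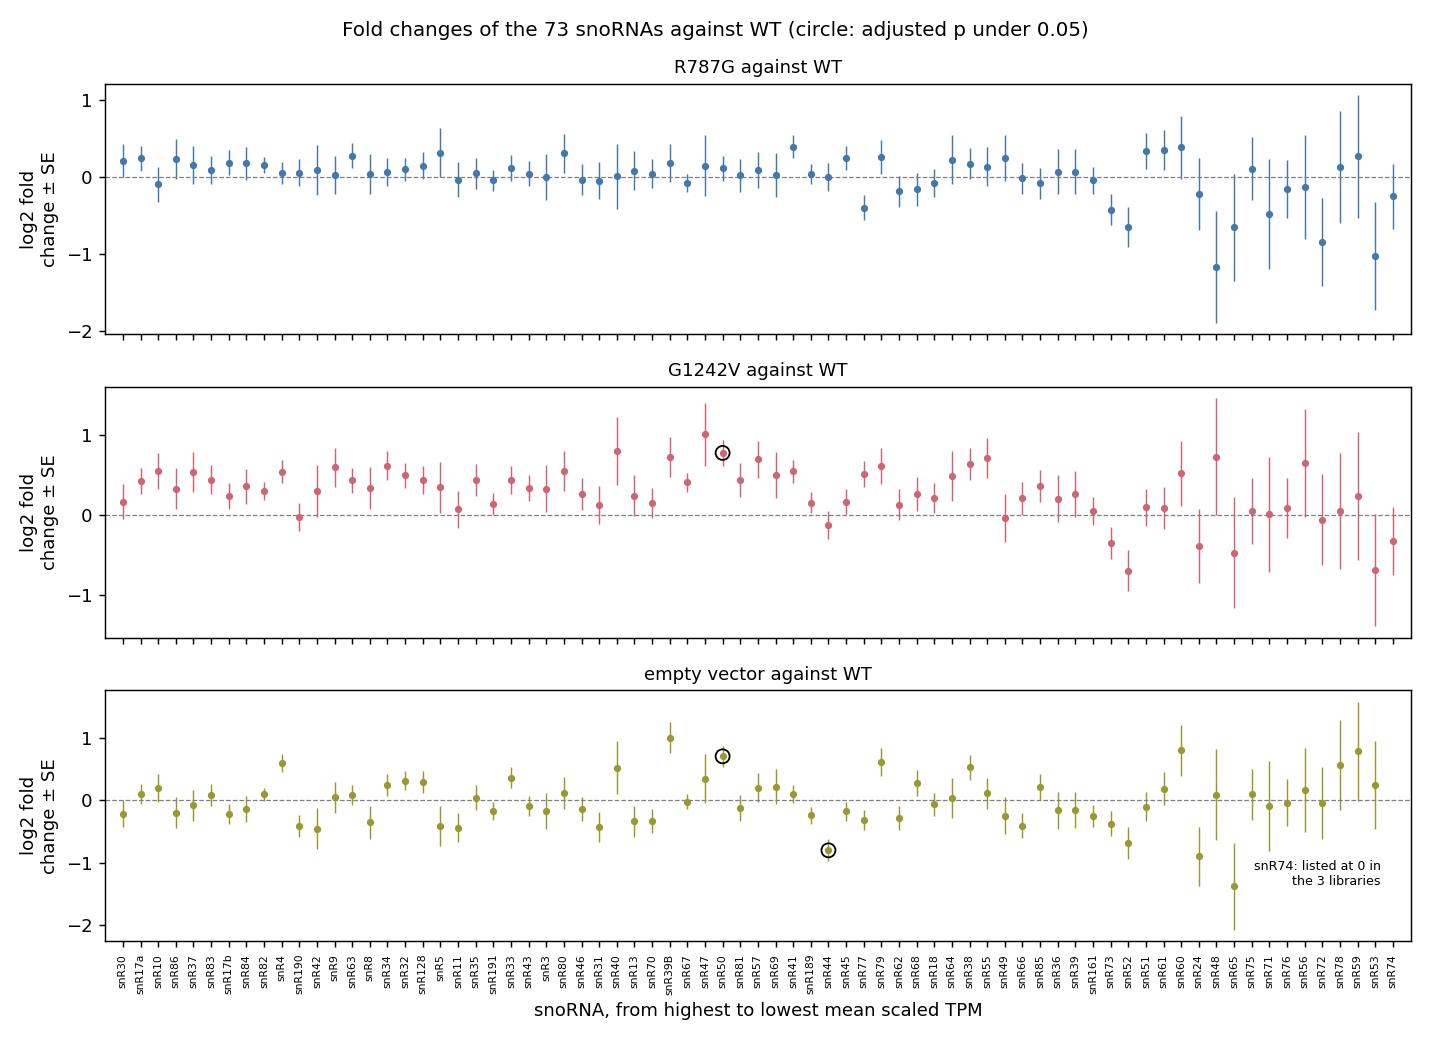
Log2 fold change ± SE (vertical axis) of each of the 73 snoRNAs, ordered from highest to lowest mean scaled TPM, for R787G, G1242V-labelled and empty-vector libraries against WT. Most abundant members on the left lie above 0 in the G1242V panel; circles mark called members (snR50, and snR44 for the empty vector), and snR74, called but listed at 0 in the empty-vector libraries, is not drawn there.

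Among the methylation guides, snR50, which directs methylation of 25S, was higher in both the G1242V-labelled and the empty-vector libraries. It was at 97.5, 70.0 and 82.5 in the libraries labelled G1242V, 68.8, 70.5 and 99.6 in the empty-vector libraries, 59.8, 43.7 and 52.6 in R787G, and 48.9, 52.0 and 42.6 in WT. All G1242V-labelled and empty-vector values lie above all WT values, and the R787G values overlap WT. The log2 fold change against WT was 0.78 for G1242V (SE 0.16, limma adjusted p = 0.03) and 0.71 for the empty vector (SE 0.16, limma adjusted p = 0.0491). The G1242V call held in 10 of 18 alternatives, with adjusted p from 0.0179 to 0.63, and the empty-vector call in 6 of 17, from 0.0399 to 0.177. The G1242V call was lost without G1242V-labelled library 1 or 3 or any 1 WT library, and the empty-vector call without any 1 library of either group. Both comparisons share the WT libraries. R787G against WT was at 0.11 (SE 0.16, limma adjusted p = 0.974).

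snR39B, a guide for a neighbouring stretch of 25S, was also higher in both of these groups than in WT without passing. It was at 105, 124 and 158 in the empty-vector libraries, 124, 85.4 and 108 in the G1242V-labelled ones, 96.0, 56.4 and 66.1 in R787G, and 78.2, 72.1 and 43.4 in WT. The empty-vector and G1242V-labelled values all lie above WT. The log2 fold change was 1.01 for the empty vector (SE 0.25, limma adjusted p = 0.0543) and 0.73 for G1242V (SE 0.25, limma adjusted p = 0.107).

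snR47 and snR40, guides for both ribosomal RNAs, had the highest fitted changes for the G1242V-labelled libraries against WT, 1.02 (SE 0.40, limma adjusted p = 0.138) and 0.80 (SE 0.42, limma adjusted p = 0.246). snR47 was at 121, 91.2 and 113 in the libraries labelled G1242V and 58.2, 86.9 and 28.8 in WT. snR40 was at 352, 282 and 288 in the libraries labelled G1242V and 217, 294 and 83.9 in WT. In both, WT library 3 is far below the other WT libraries, and it is the lowest of all 12 for 18 of the 73 members, 12 of them box C/D. Without that library the median snoRNA change of G1242V against WT was 0.24. R787G library 2 was likewise low for snR47 (31.4) and snR40 (115), against 79.5 and 79.4, and 229 and 209, in R787G libraries 1 and 3.

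snR74, a guide for 18S, was listed at 0 in all 3 empty-vector libraries. It was at 2.44, 2.58 and 1.36 in the G1242V-labelled libraries, 1.37, 5.58 and 1.18 in R787G, and 4.11, 3.90 and 1.28 in WT. These are the lowest levels of any member, it passed the filter through the groups in which it is above 0, and no fold is given. The limma adjusted p against WT was 0.0491, and the call held in 5 of 16 alternatives with adjusted p from 1.66e-07 to 0.153. It was lost without any 1 empty-vector or WT library. It is cut from the same transcript as 6 other guides, of which none was called.

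snR52, a guide for both ribosomal RNAs that is made by RNA polymerase III, had the lowest change of all members for G1242V against WT. It was at 8.84, 15.2 and 13.5 in the libraries labelled G1242V, 10.1, 11.0 and 16.7 in the empty-vector libraries, 18.6, 10.1 and 10.7 in R787G, and 23.3, 16.5 and 22.02 in WT. The G1242V-labelled values all lie below WT, and single values of the other groups overlap it. The log2 fold changes were -0.69, -0.68 and -0.65 for G1242V, empty vector and R787G (SE 0.26 each, limma adjusted p = 0.127, 0.122 and 0.676), so none passed.

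None of the remaining extremes passed, and most were guides with low levels. snR60 was all higher and snR24 all lower in the empty-vector libraries than in WT, and the libraries of the others overlapped. In R787G against WT the highest changes were those of snR41 (0.40, SE 0.15), snR60 (0.38, SE 0.41) and snR61 (0.35, SE 0.26), and the lowest those of snR48 (-1.17, SE 0.73), snR53 (-1.03, SE 0.71) and snR72 (-0.85, SE 0.57). For the empty vector against WT, snR60 (0.80, SE 0.41) and snR59 (0.79, SE 0.80) followed snR39B, and snR65 (-1.38, SE 0.70) and snR24 (-0.90, SE 0.47) followed snR74. For G1242V against WT, snR53 (-0.68, SE 0.71) and snR65 (-0.47, SE 0.70) followed snR52. snR39 and snR59 are 87% identical guides for the same 25S base, and snR60 overlaps YJL047C-A on the same strand, so their shares of reads are uncertain.

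**Figure D4:**
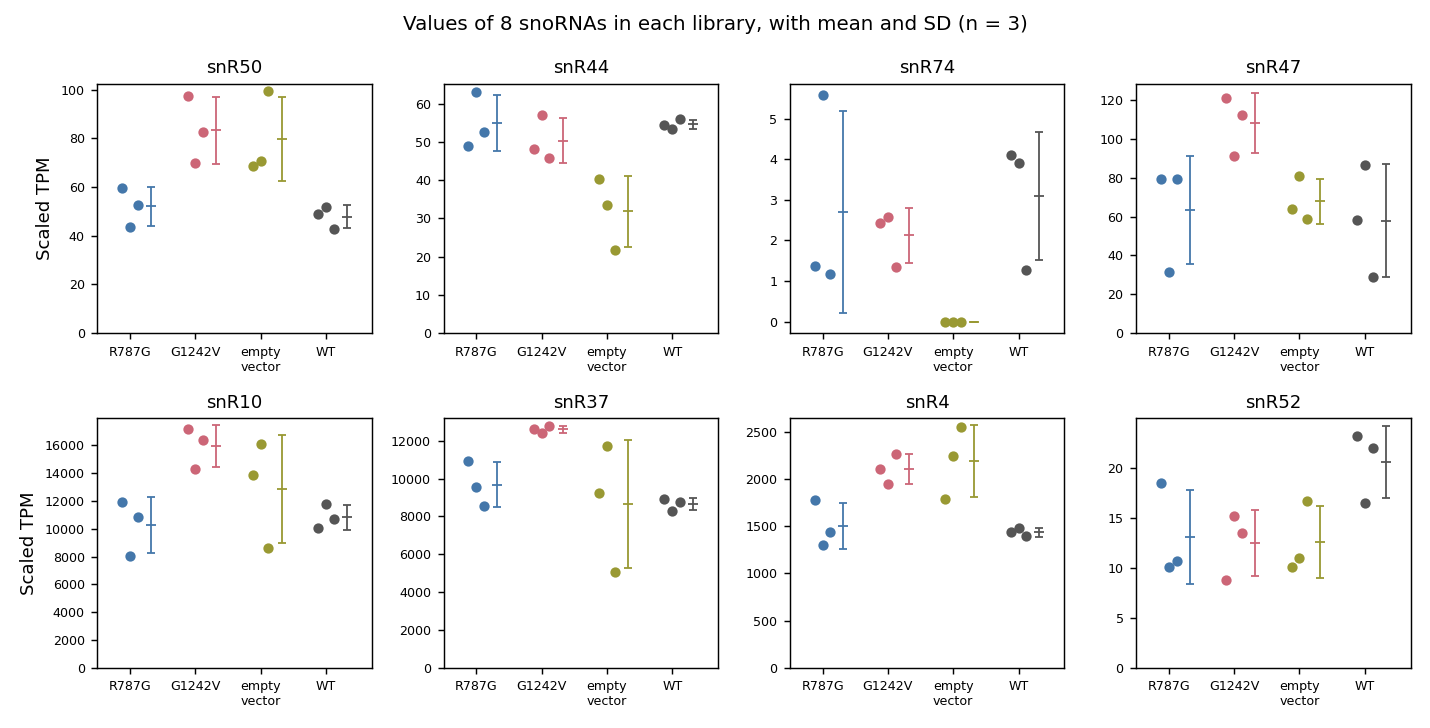
Scaled TPM (vertical axis, from 0) of 8 snoRNAs in R787G, G1242V-labelled, empty-vector and WT libraries (horizontal axis), with 1 point per library and the mean ± SD beside them (n = 3). snR50 is between 70.0 and 97.5 in the G1242V-labelled libraries and between 42.6 and 52.0 in WT, and snR44 is between 21.8 and 40.3 in the empty-vector libraries and between 53.5 and 55.9 in WT.

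Among the pseudouridine guides, snR44 fell in the empty-vector libraries. It was at 40.3, 33.6 and 21.8 in the empty-vector libraries, 49.1, 63.2 and 52.5 in R787G, 48.2, 57.1 and 45.8 in the libraries labelled G1242V, and 54.4, 53.5 and 55.9 in WT. All empty-vector values lie below all others. The log2 fold change of the empty vector against WT was -0.80 (SE 0.18, limma adjusted p = 0.0491). R787G against the empty vector was at 0.80 (SE 0.18, limma adjusted p = 0.0436), the only snoRNA called in that comparison, where 2.36% of all features were called, 1.74% higher and 0.623% lower. Each call held in 6 of 17 alternatives, with adjusted p from 0.0345 to 0.279 against WT and from 0.0323 to 0.398 for R787G against the empty vector. Both were lost when any 1 of the 3 empty-vector libraries was left out, except that the call against WT held without library 1. The call against WT was also lost without any 1 WT library, and that of R787G without R787G library 2 or 3. Without empty-vector library 3, in which 26 of 29 box H/ACA members are low, the change against WT was -0.56 (limma adjusted p = 0.093).

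Several abundant pseudouridine guides were higher in the G1242V-labelled libraries without passing. The 29 box H/ACA members had a median log2 change against WT of 0.34, with quartiles of 0.17 and 0.45. snR37, a guide for 25S, was at 12611, 12418 and 12789 in the libraries labelled G1242V and 8903, 8275 and 8776 in WT. These values do not overlap. The empty-vector libraries, which share the fit's estimate of spread, were at 9228, 11745 and 5053. The log2 fold change of G1242V against WT was 0.54 (SE 0.25, limma adjusted p = 0.184). snR34, a guide for 25S, averaged 741 ± 66.7 in the libraries labelled G1242V and 486 ± 93.0 in WT (SD, n = 3 each), with a log2 fold change of 0.62 (SE 0.18, limma adjusted p = 0.0703). snR83, snR84, snR86 and snR9 were also all higher in G1242V than in WT without overlap, with log2 changes of 0.45, 0.36, 0.33 and 0.60, none of them called. Because snR34 and snR9 were named after their values were seen, they do not stand for the class.

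All 5 snoRNAs of precursor cleavage had positive fitted changes for G1242V against WT and none passed. The values did not overlap for snR10, snR17a, snR17b and snR30 and overlapped for U14. All 5 are among the 40 members with a mean of 50 or more. Of these 40, 39 had changes above 0 and 65.0% were higher without overlap, against 20.8% of all features without overlap. snR10, needed for early cleavages, was at 17209, 14304 and 16397 in the libraries labelled G1242V, 13836, 16125 and 8587 in the empty-vector libraries, 11903, 8040 and 10850 in R787G, and 10024, 11802 and 10703 in WT. The G1242V-labelled values lie above all WT and R787G values, with a log2 change against WT of 0.56 (SE 0.23, limma adjusted p = 0.15). snR10 overlaps the open reading frame YGL088W on the same strand, so reads of both cannot be told apart.

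U3 from snR17a averaged 17984 ± 580 in the libraries labelled G1242V, 14507 ± 2688 in the empty-vector libraries, 15909 ± 1771 in R787G and 13414 ± 1327 in WT (SD, n = 3 each), a log2 change of 0.43 for G1242V against WT (SE 0.16, limma adjusted p = 0.128). snR17b averaged 2945 ± 126 in the libraries labelled G1242V and 2498 ± 206 in WT. The annotated spans of the gene pair are 88.4% identical and snR17a overlaps IRC13, so the split of reads between them is uncertain. snR30 averaged 17086 ± 902 in the libraries labelled G1242V and 15185 ± 525 in WT, with a log2 change of 0.17 (SE 0.22, limma adjusted p = 0.642). U14 (snR128) averaged 538 ± 23.5 in the libraries labelled G1242V, 485 ± 20.1 in the empty-vector libraries and 409 ± 131 in WT. snR190, which acts in large-subunit assembly and shares its transcript with U14, averaged 1799 ± 59.7 in the libraries labelled G1242V and 1826 ± 95.0 in WT, a log2 change of -0.02 (SE 0.17).

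Neither acetylation guide passed. snR4 was at 2104, 1943 and 2264 in the libraries labelled G1242V, 1787, 2241 and 2550 in the empty-vector libraries, 1777, 1299 and 1440 in R787G, and 1437, 1484 and 1391 in WT. Its G1242V-labelled and empty-vector values lie above all WT values, with log2 changes of 0.55 and 0.59 (SE 0.14 each, limma adjusted p = 0.0546 and 0.0534), just over the threshold. snR45 averaged 50.1 ± 2.62 in the libraries labelled G1242V, 40.0 ± 10.5 in the empty-vector libraries, 53.1 ± 6.07 in R787G and 44.5 ± 4.66 in WT (SD, n = 3 each), and its log2 changes against WT were within 0.25 of 0.

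Between the other groups, most snoRNAs had higher values in the G1242V-labelled libraries than in the empty-vector and R787G ones, and no member passed. Against the empty vector the median change was 0.38, 61 of 73 members and all 29 box H/ACA members were above 0, and 0 members were called by limma, with 23 at an unadjusted p under 0.05, where 0.148% of all features were called, 0.082% higher and 0.0656% lower, and 18.5% had such a p. Ranges were all higher for 25 members and all lower for 0, against 14.4% and 11.7% of all features. Without empty-vector library 3 the median was 0.20. Against R787G the median was 0.24, 60 of 73 were above 0, and 26 members were all higher and 0 all lower, against 12.5% and 11.0% of all features. There limma called 0 members and 0.0% of all features, with 14 members at an unadjusted p under 0.05, against 20.1% of all features. R787G against the empty vector had a median of 0.09, which was -0.07 without empty-vector library 3, and 4 members lay wholly above and 4 wholly below, against 12.5% and 11.3% of all features.

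snR77, a guide for 18S, had the smallest adjusted p for G1242V against the empty vector and, tied with snR50 and snR67, against R787G. It was at 53.8, 58.2 and 63.8 in the libraries labelled G1242V, 30.1, 31.6 and 36.0 in the empty-vector libraries, 38.3, 25.1 and 29.4 in R787G, and 43.2, 48.2 and 32.01 in WT. All G1242V-labelled values lie above all other values. The log2 change was 0.83 against the empty vector (SE 0.16, limma adjusted p = 0.0847), 0.92 against R787G (SE 0.16, limma adjusted p = 0.117) and 0.52 against WT (SE 0.16, limma adjusted p = 0.0863). The other extremes for G1242V against the empty vector were low members. These were snR65 (0.91, SE 0.70) at the top and snR53 (-0.93, SE 0.71), snR59 (-0.55, SE 0.80) and snR78 (-0.51, SE 0.72) at the bottom. For G1242V against R787G the other extremes were snR48 (1.90, SE 0.73) and snR47 (0.87, SE 0.40) at the top and snR49 (-0.28, SE 0.30), snR61 (-0.26, SE 0.26) and snR51 (-0.24, SE 0.23) at the bottom. For R787G against the empty vector snR5 (0.73, SE 0.32) was near the top, and snR53 (-1.27, SE 0.71), snR48 (-1.26, SE 0.73) and snR39B (-0.83, SE 0.25) were at the bottom. The R787G values of snR39B all lay below the empty-vector values, and it did not pass (limma adjusted p = 0.0984).

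Empty-vector library 3 was lower than both other empty-vector libraries for most box H/ACA members, a difference between classes that was not tested. It was below both others for 26 of 29 box H/ACA members and above both for 0, while among box C/D members it was below both for 20 and above both for 13. The median log2 difference from the mean of libraries 1 and 2 was -0.73 for box H/ACA, -0.29 for box C/D and 0.00 for all features, and it was -0.96 for the 9 other structural RNAs, all of which lay below. The 13 box C/D members above both had lengths of 78 to 186 bases with a median of 96, and included snR4, snR40, snR50, snR39B and U14. The 20 below both had 86 to 490 bases with a median of 103. Library 3 was the lowest of all 12 for 33 members. Within-group spread of snoRNAs, as the median SD on the log2 scale, was 0.41 in the empty-vector group, 0.25 in R787G, 0.16 in G1242V and 0.25 in WT, against 0.11, 0.12, 0.08 and 0.08 for all features. Without library 3 the median snoRNA change of the empty vector against WT was 0.14 and 0 members were called.

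SnoRNAs cut from the same transcript had unequal TPM. The 7 guides snR72 to snR78 lie within 1374 bases of chromosome XIII (chrXIII:297278-298651, plus strand), and their means ran from 1.98 for snR74 to 40.8 for snR77, 20.6-fold apart. In the transcript of snR67 and snR53 (chrV:61352-61789, plus) the means were 92.3 and 2.28, 40.4-fold apart. The ratio between the highest and lowest member was 11.5 for snR41, snR70 and snR51, 5.57 for snR61, snR55 and snR57, and 3.71 for snR190 and U14. Both snR74 and snR53 were listed at 0 in 3 libraries, so the ratios that rest on them are uncertain. Recovery of RNAs of different length was not tested, so all these ratios compare TPM and not molecules. Fitted changes within a transcript are given as values. Against WT in the G1242V-labelled libraries, snR57 was at 0.70 (SE 0.23) and snR61 at 0.10 (SE 0.26), and U14 at 0.44 (SE 0.18) and snR190 at -0.02 (SE 0.17), differences that were not tested.

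Intron-encoded snoRNAs lie within their hosts on the same strand, and since the counting's handling of such overlaps is not given, reads of unspliced host RNA may be shared between them. TEF4, which encodes a translation elongation factor subunit, fell in the G1242V-labelled libraries (log2 change -0.57, SE 0.12, limma adjusted p = 0.0295), while snR38 in its intron was at 42.3, 29.5 and 36.7 in the libraries labelled G1242V and 24.3, 22 and 21.6 in WT. All G1242V-labelled snR38 values lie above WT, with a log2 change of 0.64 (SE 0.20, limma adjusted p = 0.0844), and the difference between snoRNA and host was not tested. snR44 fell in the empty-vector libraries, as given above, and its host RPS22B averaged 43.1 in them and 59.1 in WT (log2 change -0.47, limma adjusted p = 0.0694). IMD4, the host of snR54, which is under the filter, fell in the empty-vector libraries (-0.49, limma adjusted p = 0.0446). For G1242V against WT, 1 of 8 host genes fell and none rose, with a median change of -0.23, and for the empty vector 1 fell and none rose. Over all features, 2.59% fell and 1.98% rose for G1242V, and 1.51% fell and 1.13% rose for the empty vector. DBR1, the enzyme that opens the intron lariats from which such snoRNAs are trimmed, rose in the empty-vector libraries to 23.7 ± 1.74, against 18.7 ± 0.962 in WT (SD, n = 3 each; log2 change 0.33, limma adjusted p = 0.0452).

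**Figure D5:**
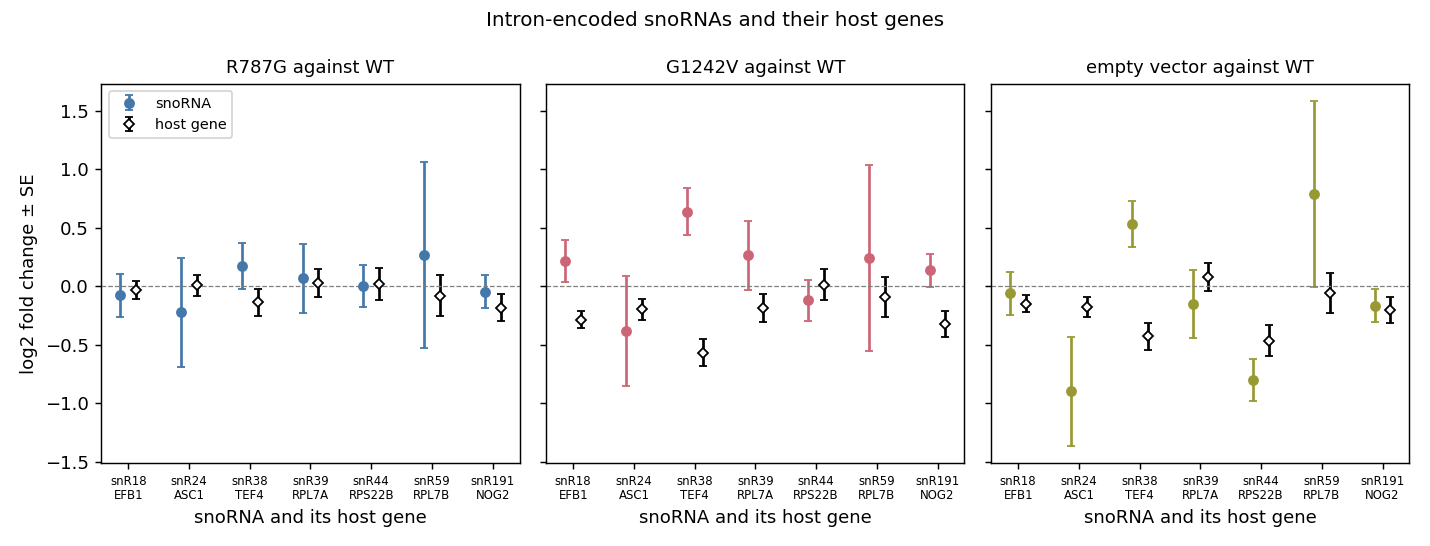
Log2 fold change ± SE (vertical axis) of 7 intron-encoded snoRNAs (circles) and their host genes (open diamonds), side by side along the horizontal axis, for R787G, G1242V-labelled and empty-vector libraries against WT. snR38 is at 0.64 and its host TEF4 at -0.57 in the G1242V panel, and snR44 is at -0.80 and its host RPS22B at -0.47 in the empty-vector panel.

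Most messenger RNAs of the core proteins that hold snoRNAs had changes below 0 against WT in every group, with calls only for the G1242V-labelled libraries. Of the 9 core proteins of the snoRNA particles, 5 fell in the G1242V-labelled libraries against WT and none rose, where 2.59% of all features fell and 1.98% rose, with a median log2 change of -0.32. These were NOP1, the methyltransferase (-0.56, limma adjusted p = 0.0116), NOP56 (-0.32, limma adjusted p = 0.0317) and NOP58 (-0.36, limma adjusted p = 0.0445), its box C/D partners, and CBF5, the pseudouridine synthase (-0.37, limma adjusted p = 0.0324), and its partner GAR1 (-0.45, limma adjusted p = 0.0157). NOP1 was at 63.7, 65.8 and 58.2 in the libraries labelled G1242V and 96.1, 90.8 and 91.9 in WT, which do not overlap. NOP10, a small subunit of the H/ACA particle, was at 352 ± 26.9 in the libraries labelled G1242V and 302 ± 32.3 in WT (SD, n = 3 each) and did not pass. In the empty-vector libraries the median was -0.28 and in R787G against WT it was -0.21, with no member called in either. The smallest limma adjusted p was 0.0534 for the empty vector and 0.501 for R787G. Values were all lower than WT for 8 of the 9 genes in G1242V, 8 in R787G and 7 in the empty vector. Among all features these shares were 19.6%, 5.77% and 18.4%. The 3 comparisons share the WT libraries, so they are not independent. Between the other groups the median was 0.09 for R787G against the empty vector, -0.04 for G1242V against the empty vector and -0.18 for G1242V against R787G. The 9 assembly factors had no member called against WT in any group. Of 18 genes of snoRNA end formation and maturation, a list that includes the promoter factor TBF1, only DBR1 was called against WT. It rose in the empty-vector libraries, where 1.13% of all features rose.

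A match to ACCCTAA on either strand, the core of the site read by Tbf1, a factor known at yeast snoRNA promoters, lay within 250 bases upstream of 5 of 54 snoRNA transcription units, or 9.26%, and of 119 of 6430 genes of all kinds, or 1.85%. The 5 were those of snR13, snR30, snR35, snR46 and snR65, none of which was called in any comparison. Their log2 changes for G1242V against WT were 0.25, 0.17, 0.44, 0.27 and -0.47.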

How the data were processed

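Total RNA was sequenced after ribosomal RNA depletion as stranded libraries of 50 bp single reads, per the labels' protocols. TPM per gene were deposited by the authors for each library. Per the submitters' processing notes, STAR, RSEM, edgeR, bcl2fastq 2.17 and sacCer3 were used, in roles not given, and the strand setting of the counting is not given in the sources used here. TPM adjusts for length and library total, so depth is unknown. From the deposited TPM, each library was divided by its median ratio over 5421 genes with a mean TPM of at least 10. Features with a mean TPM of at least 1 (6097) were fitted on log2(scaled TPM + 1) with limma 3.58.1 in R 4.3.3 (statmod 1.5.0), with group as the only term, all 12 libraries, a variance trend, 8 residual and 3.20 prior degrees of freedom. Benjamini-Hochberg adjustment ran over all of them, and adjusted p under 0.05 was called. The script was tested on simulated data. No sample was dropped or imputed, and 3 misaligned rows of the table were left out.

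The snoRNAs and gene lists (core proteins, assembly, end formation, hosts, other structural RNAs, ribosomal RNA, mating-type and sporulation markers) were chosen with earlier results of these data known. Named were the called snoRNAs of each comparison, the 3 highest and 3 lowest, the 8 most abundant, and those for precursor cleavage, acetylation, introns and shared transcripts. snR34, snR9, snR13, snR35 and snR46 were named after their values were seen. Alternatives were other scalings, pseudocounts, filters, fits of fewer libraries, no variance trend, a replicate block, and each library left out.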

Additional observations from a re-analysis of the deposited data

How the results depend on the processing

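Counts of called snoRNAs rested on the settings, and TPM keeps no depth to set a detection limit. For G1242V against WT there were 0 calls with TPM as deposited, 0 with scaling by the 9 structural RNAs, 0 with G1242V-labelled library 2 alone (an arm of 1 library), 20 with only both groups and 6 without empty-vector library 3 in the fit (chosen after seeing the data). For the empty vector against WT there were 5 calls with TPM as deposited, 5 with structural scaling, 1 with pseudocount 5, 1 with only both groups, and 0 with no filter or no variance trend. For R787G against the empty vector there were 4 with TPM as deposited, 2 with quantile normalization, 7 with structural scaling, 2 with pseudocount 0.1, and 0 with no filter, only both groups or no variance trend. Structural scaling gave 1 call each for R787G against WT, G1242V against the empty vector and G1242V against R787G, and pseudocount 0.1 gave 1 for G1242V against the empty vector. With the replicate block the calls were 2 for G1242V against WT, 0 for the empty vector against WT and 0 for R787G against the empty vector, so both snR44 calls are lost; equal numbers share no stated source, 8 of 18 equal-numbered pairs had correlated deviations above 0.1, and 6 of 12 libraries correlated best with their own number. Leaving out 1 library gave 0 to 2, 0 to 1 and 0 to 5 calls in the same order, 0 for R787G against WT and for G1242V against the empty vector, and 0 to 2 for G1242V against R787G. Structural scaling moved the median snoRNA change to -0.0707 for R787G against WT, 0.0916 for G1242V against WT, -0.19 for R787G against the empty vector, -0.0264 for G1242V against the empty vector and 0.15 for G1242V against R787G, where the medians of all features were -0.12, -0.23, -0.28, -0.39 and -0.11. Leaving out 1 library gave medians of -0.04 to 0.12 for R787G against WT, 0.24 to 0.40 for G1242V against WT, -0.24 to 0.14 for the empty vector against WT, -0.07 to 0.27 for R787G against the empty vector, 0.20 to 0.53 for G1242V against the empty vector and 0.22 to 0.32 for G1242V against R787G. Changes of sign occurred in a few single results. Leaving out 1 library, snR61 ran from -0.0432 to 0.564 for R787G against WT and from -0.467 to 0.14 for G1242V against R787G, and, for G1242V against the empty vector, snR59 from -1.21 to 0.147 and snR78 from -0.993 to 0.194. With G1242V-labelled library 2 alone, snR65 was at 0.259 against WT and snR51 at 0.0253 against R787G. The cause was not tested.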
